A study of Danio rerio with 8 samples.

Results

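The genes described here are the vascular receptor tyrosine kinases tek, tie1, kdrl, kdr, flt1 and flt4 and the angiopoietin ligands angpt1, angpt2a and angpt2b, 9 genes in all. They were chosen by exact gene symbol among the 25725 genes listed in each file. All 9 were present, and all 9 had enough reads to be tested. They were measured by bulk RNA sequencing of zebrafish (Danio rerio) samples labelled as heart at 5 days postfertilization. The 4 DMSO samples came from fish kept in the solvent, and the 4 TCDD samples from fish exposed to TCDD, the dioxin that binds and activates the aryl hydrocarbon receptor (AHR). Both treatments ran from 2 hours postfertilization to sampling. The sources used here do not give the strain, the TCDD concentration, the number of fish per sample or the clutch of origin. The p values therefore measure the spread between these samples, which may be technical.

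Endothelial cells line blood and lymphatic vessels and, as endocardium, the inside of the heart, and they carry both families of receptors. Vascular endothelial growth factors (VEGFs) bind the receptors encoded by kdrl, kdr, flt1 and flt4 and drive vessel growth, while flt1 also acts as a decoy and flt4 is best known for veins and lymphatic vessels. The angiopoietins bind the receptor encoded by tek (also called tie2), which works together with the related receptor encoded by tie1. In mammals angiopoietin 1 activates this receptor and stabilises vessels, whereas angiopoietin 2 can oppose it.

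Libraries held 14048563 to 15183023 estimated counts, and 3 counts, taken as the smallest detectable level, were 0.193 to 0.24 CPM (counts scaled to the size of the library). The AHR target cyp1a, the check of exposure, was at 101 to 164 CPM in DMSO and 6173 to 9744 CPM in TCDD. Cardiomyocyte markers were detected (7 genes, summed level 1483 to 2056 CPM in DMSO), but the 7 liver markers summed to 23930 to 47680 CPM, so the material was not heart alone and the vessels of other organs may be included. In such bulk samples fewer cells of a type and less RNA per cell cannot be told apart. CPM is given on library sizes scaled by the trimmed mean of M values (TMM). Means are given ± SD with n = 4 samples a group. A log2 fold change is given ± SE and is positive where TCDD was higher. The adjusted p is that of edgeR's quasi-likelihood test, with the Benjamini-Hochberg method over 20522 genes.

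Of the 9 genes 3 changed: tek and flt4 fell and angpt2a rose. The other 6 did not pass at an adjusted p under 0.05. That is 1 member higher and 2 lower, while over all genes tested 5.72% were called, 2.99% higher and 2.73% lower. The median log2 fold change of the members was -0.31, against 0.00 over all genes. In CPM on the TMM scale the groups did not overlap for 4 of the 9 (tek, flt4, flt1 and angpt2a), against 14.0% of all genes.

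**Figure D1:**
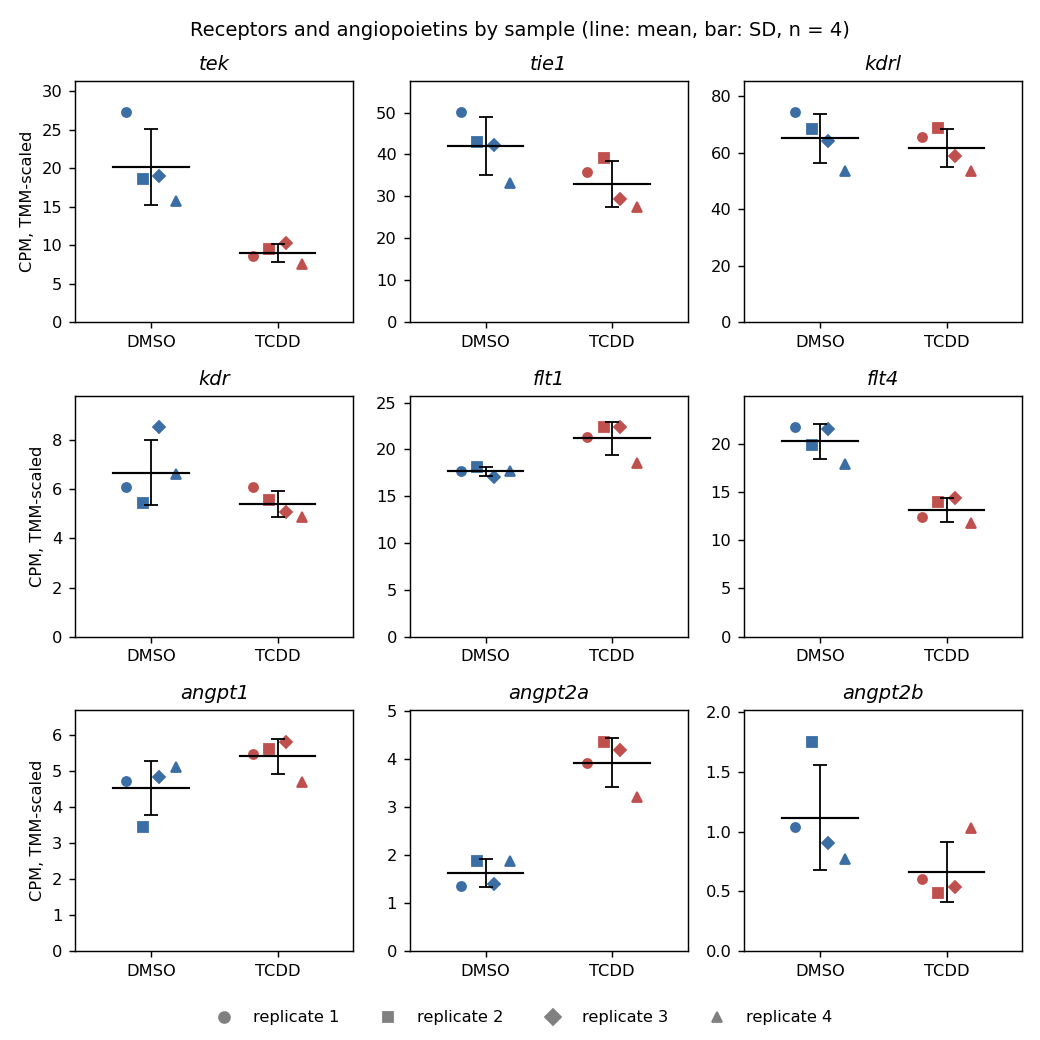
Level of each receptor and angiopoietin gene (vertical axis, CPM on TMM-scaled library sizes, starting at 0) in each of the 4 DMSO and 4 TCDD samples (points, with 1 marker shape per replicate number); lines are means and bars SD. The groups of tek, flt4, flt1 and angpt2a do not overlap, with angpt2a at 1.36 to 1.89 CPM in DMSO and 3.22 to 4.37 CPM in TCDD.

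The angiopoietin receptor gene tek (NCBI gene 30747) had the largest fall of the 9. The DMSO samples 1 to 4 held 27.2, 18.6, 18.9 and 15.7 CPM and the TCDD samples 8.58, 9.56, 10.3 and 7.59 CPM. Every TCDD sample was below every DMSO sample, and DMSO 1 stood highest. The mean went from 20.1 ± 4.96 to 9.02 ± 1.19 CPM, or 44.9% of the DMSO level (log2 fold change -1.16 ± 0.18, 95% interval -1.54 to -0.77, adjusted p = 0.00374). Without DMSO 1 the change was -0.98 (adjusted p = 0.00221), so the fall did not rest on that sample.

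Its partner tie1 (NCBI gene 30746) did not pass. The DMSO samples held 50.01, 42.9, 42.2 and 33.2 CPM and the TCDD samples 35.7, 39.1, 29.3 and 27.5 CPM. The groups overlapped, because DMSO 4 was below TCDD 1 and TCDD 2. The log2 fold change was -0.35 ± 0.15, with an interval of -0.68 to -0.031 and adjusted p = 0.188.

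Among the VEGF receptors flt4 (NCBI gene 30121), the receptor of VEGFC and VEGFD in mammals, fell. It was at 21.7, 19.9, 21.5 and 17.9 CPM in the DMSO samples and at 12.4, 14.0, 14.4 and 11.8 CPM in the TCDD samples. In CPM the groups were well apart, with each spread small. In TPM (a level per transcript length) they overlapped, at 3.78 to 5.53 in DMSO and 3.3 to 4.03 in TCDD. The mean went from 20.25 ± 1.79 to 13.1 ± 1.27 CPM, or 64.9% of the DMSO level (log2 fold change -0.63 ± 0.12, interval -0.88 to -0.37, adjusted p = 0.0119).

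The receptor gene kdrl (NCBI gene 796537), which carries most VEGFA signalling in zebrafish vessels, was the most abundant of the 9. It was at 74.2, 68.4, 64.1 and 53.4 CPM in the DMSO samples and at 65.4, 68.7, 58.7 and 53.6 CPM in the TCDD samples. These ranges covered each other almost fully. The log2 fold change was -0.077 ± 0.12 with an interval of -0.35 to 0.19 (adjusted p = 0.765), and its sign turned with library size alone as the scale (0.055). The counts of kdrl had a fraction in all 8 libraries, which estimated counts have where reads are divided between genes.

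The second VEGFA receptor gene kdr (NCBI gene 554230) was less abundant, with 76 to 122 counts per library. The DMSO samples held 6.07, 5.46, 8.53 and 6.63 CPM and the TCDD samples 6.08, 5.54, 5.07 and 4.89 CPM. DMSO 3 was the highest and the other samples lay close together. The log2 fold change of -0.31 ± 0.17 did not pass (interval -0.67 to 0.057, adjusted p = 0.305).

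The receptor gene flt1 (NCBI gene 544667) was the only receptor gene with a fitted value above 0. It was at 17.7, 18.1, 17.1 and 17.7 CPM in the DMSO samples and at 21.3, 22.4, 22.3 and 18.6 CPM in the TCDD samples. The groups did not overlap, although TCDD 4 lay just above the DMSO range. The log2 fold change of 0.26 ± 0.11 did not pass (interval 0.032 to 0.49, adjusted p = 0.173). Counts per gene do not separate the membrane-bound form from the soluble decoy form of this receptor.

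Within each group the receptors tended to be high or low in the same samples. TCDD 4 had the lowest value of its group for 6 of 6 receptors, and DMSO 4 for 4 of 6. DMSO 1 had the highest value of its group for 4 of 6 in CPM on the TMM scale. This was not particular to the receptors. TCDD 4 was also lowest of its group for the summed mural, cardiomyocyte, erythrocyte, liver, skin and cartilage markers described below. DMSO 1 was highest for the summed endothelial, mural, cardiomyocyte, erythrocyte, liver, skeletal muscle and skin markers. The neural sum went the other way in both samples. The place of DMSO 1 depends on the scale. Its TMM factor was 0.8253, against 0.9716 to 1.058 in the other DMSO samples, and a lower factor raises every CPM value of a library. In TPM (a level per transcript length) the receptors summed to 31.74 in DMSO 1, and to 44.74, 36.68 and 31.11 in DMSO 2 to 4. The summed level of the receptors was 144.5 to 197 CPM in DMSO and 124 to 159 CPM in TCDD on the TMM scale. Its group means were 171.8 and 143.2 CPM there, and 163.5 and 149.6 CPM on library size alone. In TPM they were 36.07 and 37.38, so the mean sum was not lower in TCDD on each scale.

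Of the ligands, the angiopoietin 2 gene angpt2a (NCBI gene 101101687) rose. It was at 1.36, 1.89, 1.40 and 1.89 CPM in the DMSO samples and at 3.92, 4.365, 4.202 and 3.22 CPM in the TCDD samples. Every TCDD sample exceeded every DMSO sample. These levels rest on few reads, 17 to 28 counts per DMSO library and 50 to 63 per TCDD library. The mean went from 1.63 ± 0.294 to 3.925 ± 0.507 CPM, a 2.39-fold rise (log2 fold change 1.26 ± 0.20, interval 0.82 to 1.69, adjusted p = 0.00459).

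The paralog angpt2b (NCBI gene 114408) was near the limit of what the depth can show, with 11 to 26 counts per DMSO library and 7 to 16 per TCDD library. The values were 1.04, 1.75, 0.909 and 0.768 CPM in DMSO and 0.608, 0.485, 0.534 and 1.03 CPM in TCDD. TCDD 4 lay within the DMSO range. The log2 fold change was -0.74 ± 0.36, with a wide interval of -1.53 to 0.044 (adjusted p = 0.252). Of the summed TPM of both paralogs, angpt2a held 57.9 ± 8.39% in DMSO and 84.1 ± 6.87% in TCDD.

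The angiopoietin 1 gene angpt1 (NCBI gene 114407) did not pass. The DMSO samples held 4.71, 3.44, 4.82 and 5.10 CPM and the TCDD samples 5.47, 5.61, 5.80 and 4.70 CPM. Only TCDD 4 fell within the DMSO range. The log2 fold change was 0.26 ± 0.17 (interval -0.10 to 0.62, adjusted p = 0.389). Mural cells, the pericytes and smooth muscle around vessels, are a known source of angiopoietin 1. Of 9 mural markers none rose and 2 fell, tagln and myh11a (1 with library size alone). The other 7 did not pass, with fitted log2 fold changes from -0.53 (acta2) to 0.115 (pdgfrb). The median of the 9 was -0.082, and of all genes tested 2.73% were called lower and 2.99% higher. The summed level of the mural markers was 411.9 to 586.5 CPM in DMSO and 313.3 to 364.3 CPM in TCDD. That sum leans on acta2, with a mean of 219.9 of 472.2 CPM in DMSO. All 9 were detected in every library, and their part in the angiopoietin values was not tested.

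Levels of different genes can be compared per transcript length, for which the deposited TPM, a level per transcript length, were used. In DMSO the order was kdrl (11.8 ± 2.53 TPM), tie1 (6.745 ± 1.35), flt1 (5.96 ± 1.16), tek (5.715 ± 0.877), flt4 (4.58 ± 0.794), angpt1 (3.215 ± 0.490), kdr (1.26 ± 0.306), angpt2a (1.175 ± 0.395) and angpt2b (0.895 ± 0.519). The ranges of kdrl and tie1, of flt4 and angpt1 and of angpt1 and kdr did not overlap, whereas those of the other neighbours did. In TCDD the order of the TPM levels was kdrl (13.85 ± 0.992 TPM), flt1 (8.90 ± 0.487), tie1 (6.51 ± 0.828), angpt1 (4.77 ± 0.330), flt4 (3.65 ± 0.329), angpt2a (3.39 ± 0.353), tek (3.215 ± 0.403), kdr (1.25 ± 0.0779) and angpt2b (0.635 ± 0.2665). There the ranges of flt4 and angpt2a and of angpt2a and tek overlapped, and those of the other neighbours did not. The gene tek thus moved from the fourth place to the seventh. TPM and CPM scale a library differently, and the mean TPM of kdrl was higher in TCDD while its mean CPM was lower, so TPM was used for order and for ratios within a library and not for the change of a gene.

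As shares of the summed TPM of the 6 receptors, tek held 16.0 ± 2.02% in DMSO and 8.60 ± 0.91% in TCDD. The share of flt4 was 12.7 ± 0.686% and 9.78 ± 0.784%. The shares of flt1 (16.6 ± 2.25% and 23.8 ± 1.26%) and kdrl (32.6 ± 1.32% and 37.0 ± 1.22%) were larger in TCDD. The groups did not overlap for these 4 receptors and overlapped for tie1 and kdr. In these libraries tek and flt4 thus took a smaller part of the receptor transcripts under TCDD, and flt1 and kdrl a larger one. The shares are parts of a whole, so smaller shares of some receptors make those of others larger. By edgeR neither flt1 (log2 fold change 0.26, adjusted p = 0.173) nor kdrl (-0.077, adjusted p = 0.765) was called.

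Ratios between 2 genes within a library do not depend on how libraries are scaled. Of 11 ratios compared, 7 had groups that did not overlap and the smallest exact two-sided permutation p that 4 against 4 samples can give, p = 0.0286 (adjusted p = 0.0449 over the 11). With estimated counts in place of TPM the exact permutation test gave p = 0.0286 for 6 of 11 and no adjusted p under 0.05 (the smallest was 0.0524), so these calls are at the limit of the design. The adjusted p depends on the number of ratios tied at the smallest p. The ratios also share genes, and those to the marker list share a denominator, so they are not separate results. They were chosen with earlier results of these data known. Several hold tek, flt4 or angpt2a, which were already called in the same samples, so their p values add no support to those calls.

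The ratio of tie1 to tek was 1.02, 1.28, 1.23 and 1.18 in the DMSO samples and 2.33, 2.27, 1.57 and 2.03 in the TCDD samples, a difference of 0.79 on the log2 scale (exact permutation p = 0.0286, adjusted p = 0.0449). In these libraries every TCDD ratio of tie1 to tek exceeded every DMSO ratio. The ratio holds tek, which was already called, so its p value adds no support to that call. The ratio of angpt2a to angpt1 was 0.282, 0.534, 0.284 and 0.361 in DMSO and 0.700, 0.760, 0.707 and 0.668 in TCDD, a 2.01-fold difference (exact permutation p = 0.0286, adjusted p = 0.0449). The ratio of flt4 to kdrl was 0.391 ± 0.0324 and 0.265 ± 0.0299 (exact permutation p = 0.0286, adjusted p = 0.0449). Those of flt1 to kdrl (0.510 ± 0.0846 and 0.645 ± 0.0546, exact permutation p = 0.0857) and of kdr to kdrl (0.109 ± 0.0288 and 0.0904 ± 0.00552, exact permutation p = 0.371) did not pass.

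**Figure D2:**
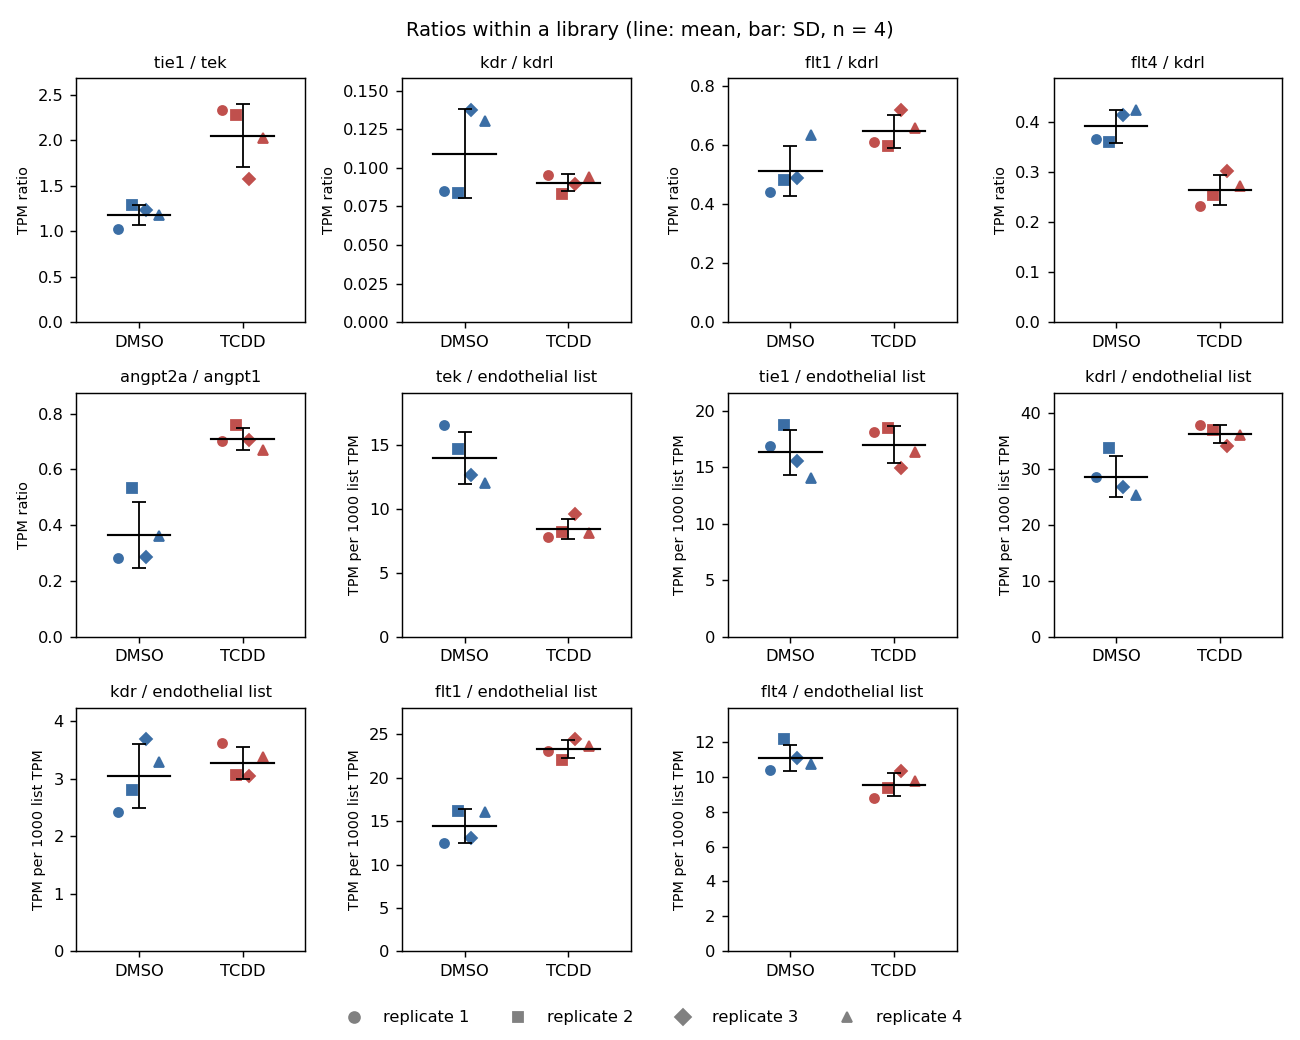
The 11 ratios within each library (vertical axes, starting at 0: TPM of 1 gene over TPM of another, or TPM per 1000 TPM of the endothelial marker list), with points for the 4 DMSO and 4 TCDD samples, lines for means and bars for SD. The groups do not overlap for 7 ratios, among them tie1 to tek, with 1.02 to 1.28 in DMSO and 1.57 to 2.33 in TCDD.

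Part of the endothelial markers other than the receptors fell as well, and so did markers of several other cell types. Of 21 markers tested, 6 fell, 1 rose and 14 did not pass, and 19 had a fitted value below 0 (median log2 fold change -0.36). Over all genes tested 2.73% were called lower and 2.99% higher. The largest fall was that of plvapb, which encodes a protein of endothelial fenestrae, from 91.2 ± 9.998 to 47.9 ± 3.045 CPM (-0.93 ± 0.11, adjusted p = 0.000808). The transcription factor gene sox18 (-0.835 ± 0.12, adjusted p = 0.0030) and the genes mrc1a (-0.815 ± 0.145, adjusted p = 0.00849) and lyve1b (-0.67 ± 0.14, adjusted p = 0.0161) fell too. The remaining falls were those of clec14a and ramp2. Those of clec14a, ramp2 and lyve1b were not called with library size alone (adjusted p = 0.0535, 0.0863 and 0.0537) nor in some fits without 1 sample, where the adjusted p reached 0.103, 0.0699 and 0.0626.

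The von Willebrand factor gene vwf went the other way, from 23.0 ± 3.725 to 42.9 ± 6.69 CPM (0.90 ± 0.14, adjusted p = 0.00459). The most abundant markers were aqp1a.1 (146 ± 33.9 and 109 ± 13.7 CPM, adjusted p = 0.16), plvapb and fli1 (58.9 ± 6.35 and 50.3 ± 6.44 CPM, adjusted p = 0.291). The summed level of the 21 markers was 614.9 to 747.2 CPM in DMSO and 469.9 to 569.7 CPM in TCDD, with none at 0 in any library. On library size alone the group means were 639 and 549 CPM. In TPM the sums overlapped, at 363.9 to 455.3 in DMSO and 355.3 to 407.2 in TCDD, with means of 410.9 and 382.4. TCDD 4, lowest of its group for each receptor, was also lowest for this sum. The number of markers that fell was 3 with library size alone, 3 without DMSO 3, 3 without TCDD 1 and 9 without DMSO 2.

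Lower levels under TCDD were not particular to endothelial markers. Of all genes tested 2.73% were called lower and 2.99% higher. All 4 cartilage markers tested, col2a1a, matn1, col9a1a and col11a2, fell (median log2 fold change -0.67). Their summed level was 7436 to 8268 CPM in DMSO and 4315 to 5473 CPM in TCDD. In TPM the cartilage sums overlapped, at 1588 to 2679 in DMSO and 1491 to 1741 in TCDD. Of 7 cardiomyocyte markers 2 fell, myl7 and myh7, and 6 had a fitted value below 0 (median -0.38), with sums of 1483 to 2056 and 1101 to 1567 CPM. Of 6 erythrocyte markers hbbe2 fell and all 6 had a fitted value below 0 (median -0.52), with sums of 3862 to 7435 and 2469 to 3865 CPM. Of 6 skin markers cyt1l fell (median -0.29), with sums of 10310 to 15270 and 8481 to 12170 CPM.

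None of the 5 skeletal muscle markers passed (median -0.415), with sums of 4890 to 8250 and 4708 to 7139 CPM. Of 7 liver markers cp rose and the other 6 did not pass (median -0.031), with sums of 23930 to 47680 and 25940 to 33160 CPM. On library size alone the mean sums were 5925 and 5932 CPM for muscle and 30430 and 32030 CPM for liver, so neither mean sum was lower in TCDD. On the TMM scale both were lower, at 6298 and 5677 CPM for muscle and 32570 and 30670 CPM for liver. A sum follows its most abundant genes. With library size alone 3 of the 5 muscle markers still had a fitted value below 0 (median -0.259), against 2 of the 7 liver markers (median 0.127). None of the 4 neural markers passed, and each had a fitted value above 0 (median 0.23), with sums of 354 to 742 and 548.7 to 800.6 CPM. None of the markers of these lists was at 0 in any library. Without both DMSO 1 and TCDD 2, 4 cartilage, 1 cardiomyocyte, 1 erythrocyte and 0 skin markers fell, and with library size alone 3, 1, 2 and 0. Leaving out 1 sample gave 2 to 4, 0 to 2, 0 to 3 and 0 to 2. The part of any of these tissues in the receptor values was not tested.

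**Figure D3:**
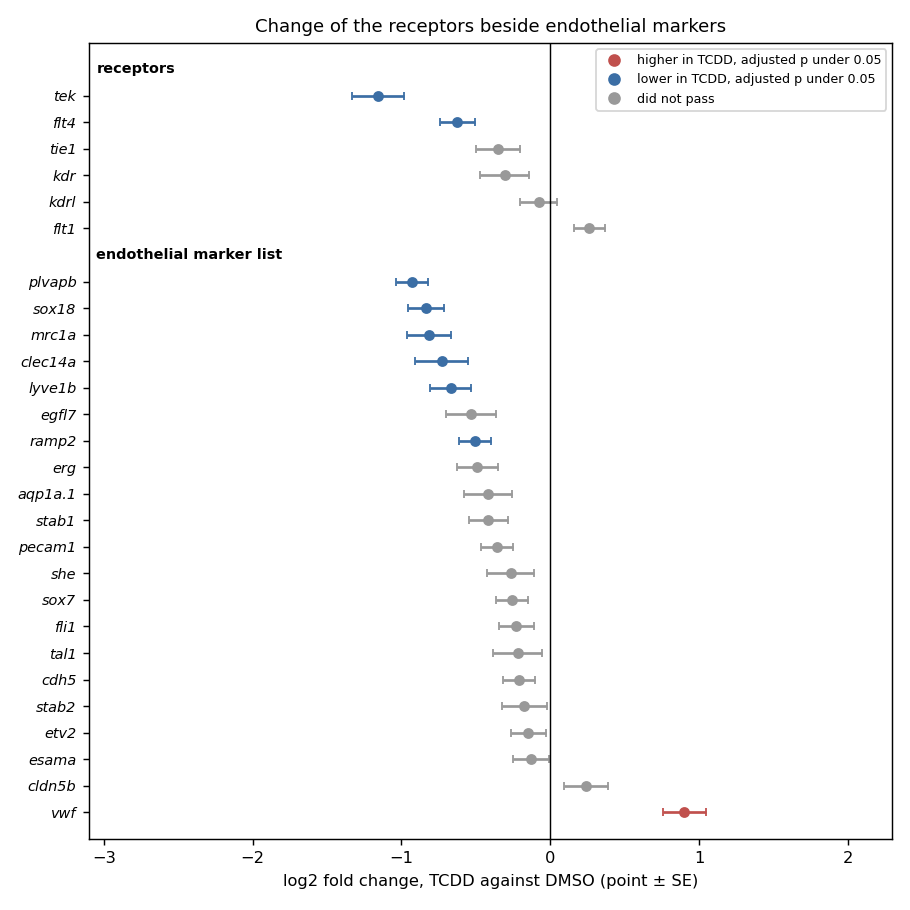
Log2 fold change of the 6 receptors and the 21 endothelial markers (horizontal axis; points ± SE from edgeR; red higher and blue lower in TCDD at an adjusted p under 0.05, grey not passing). The fall of tek (-1.16) lies beyond every marker, and vwf (0.90) lies on the other side of 0.

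Relative to the summed TPM of the marker list, tek stood at 12.0 to 16.5 per 1000 in DMSO and at 7.79 to 9.57 per 1000 in TCDD (log2 difference -0.73, exact permutation p = 0.0286, adjusted p = 0.0449). It was therefore lower also beside the sum of this list. That sum leans on its most abundant gene, aqp1a.1, with mean TPM of 148.4 of 410.9 in DMSO and 139.7 of 382.4 in TCDD. The same holds for the other receptors compared with the list. For flt4 the difference from the list was smaller, 11.1 ± 0.764 and 9.55 ± 0.649 per 1000 (-0.215, exact permutation p = 0.0286, adjusted p = 0.0449). The values of flt1 were 14.45 ± 1.93 and 23.3 ± 1.02 per 1000 and those of kdrl 28.6 ± 3.64 and 36.2 ± 1.62 per 1000, both higher in TCDD (log2 differences 0.70 and 0.35, each with exact permutation p = 0.0286, adjusted p = 0.0449). With estimated counts kdrl had p = 0.0571 by the exact permutation test. For tie1 (log2 difference 0.060, exact permutation p = 0.60) and kdr (0.116, exact permutation p = 0.457) the groups overlapped.

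Around the receptors, 42 further genes of the pathways were matched and 41 had enough reads to test. Of these 4 rose, 3 fell and 34 did not pass, while over all genes tested 5.72% were called, 2.99% higher and 2.73% lower. The median of the 41 pathway genes was 0.061 on the log2 scale. The calls were those of 2 VEGF ligands, 1 phosphatase, 1 target, 1 chemokine receptor and 2 angiopoietin-like genes.

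Among 8 VEGF ligands 2 rose, 0 fell and 5 did not pass, and pgfa was not tested, with 9 counts in all DMSO libraries and 3 in all TCDD libraries. One was vegfd, whose mammalian counterpart encodes a ligand of the FLT4 receptor. The gene vegfd was at 3.83, 3.71, 4.33 and 4.12 CPM in the DMSO samples and at 8.31, 8.25, 7.60 and 6.88 CPM in the TCDD samples (0.95 ± 0.14, adjusted p = 0.0030). The groups lay well apart. The placental growth factor gene pgfb, whose mammalian counterpart binds the Flt1 receptor, rose from 5.11 ± 0.812 to 8.37 ± 1.14 CPM (0.71 ± 0.16, adjusted p = 0.0258). That call was lost with length offsets (adjusted p = 0.0506), without both DMSO 1 and TCDD 2 (0.0524), and without DMSO 3 (0.0916), DMSO 4 (0.0610), TCDD 1 (0.0602), TCDD 2 (0.0825) or TCDD 3 (0.0674). The main VEGFA genes did not pass, with 17.0 ± 1.52 and 18.9 ± 1.93 CPM for vegfaa (0.148 ± 0.118, adjusted p = 0.503) and 18.2 ± 2.51 and 20.4 ± 4.12 CPM for vegfab (0.163 ± 0.158, adjusted p = 0.59). The gene vegfc, whose mammalian counterpart encodes the other FLT4 ligand, did not pass either (-0.23 ± 0.16, adjusted p = 0.436). Which receptors the zebrafish ligands bind was not tested here.

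None of the 4 neuropilin co-receptor genes was called. The most abundant, nrp1a, was at 99.6 ± 17.85 and 104 ± 4.58 CPM (0.061 ± 0.128, adjusted p = 0.827), with a sign that changed in 4 alternatives.

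Among 5 genes that process VEGFC or act on the Tie receptors 1 fell. It was ptprb, the counterpart of the vascular endothelial protein tyrosine phosphatase, which in mammals binds the tek receptor and removes its phosphate groups. The DMSO samples held 71.6, 69.6, 68.1 and 68.3 CPM and the TCDD samples 42.7, 39.2, 38.35 and 34.8 CPM. In CPM the DMSO samples lay very close together and every TCDD sample was far below them (-0.84 ± 0.095, adjusted p = 0.000713). In TPM the DMSO samples were spread more widely, at 8.64 to 13.58, against 7.19 to 8.02 in TCDD. The VEGFC processing genes ccbe1 (-0.39 ± 0.26), adamts3 (-0.46 ± 0.22) and adamts14 (-0.109 ± 0.205) did not pass.

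Among 6 signalling and target genes esm1 rose and 5 did not pass. The gene esm1, which encodes endocan and marks sprouting tip cells in mammals, was at 3.83, 4.99, 5.80 and 6.42 CPM in the DMSO samples and at 15.7, 15.1, 17.2 and 20.5 CPM in the TCDD samples. This was the largest change of the pathway genes tested (1.70 ± 0.17, adjusted p = 0.000331). The most abundant of the group, the peptide gene apln, stood at 93.6 ± 14.6 and 129 ± 11.7 CPM (0.46 ± 0.125, adjusted p = 0.0533). The apln change passed with DESeq2 (adjusted p = 0.0114), with library size alone (0.0365) and without DMSO 4 (0.0225). The Notch ligand gene dll4 was at 20.55 ± 1.31 and 24.2 ± 1.76 CPM (0.24 ± 0.105, adjusted p = 0.213).

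Among 10 other endothelial receptor genes only the chemokine receptor gene cxcr4a was called, at 8.50 ± 0.570 and 12.5 ± 1.12 CPM (0.55 ± 0.12, adjusted p = 0.0234). Leaving out DMSO 3 (adjusted p = 0.0608) or 1 of TCDD 1 (0.0785), TCDD 2 (0.0841) and TCDD 3 (0.0632) ended the cxcr4a call, as did leaving out DMSO 1 together with TCDD 2 (0.0919). The most abundant over both groups, s1pr1, did not pass (64.2 ± 13.8 and 61.4 ± 6.67 CPM, adjusted p = 0.839).

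The angiopoietin-like genes encode secreted proteins related in sequence to angiopoietins that do not bind the tek receptor. Of 9 tested 2 fell and 0 rose. The gene angptl1b went from 6.36 ± 0.724 to 2.275 ± 0.420 CPM (-1.48 ± 0.18, adjusted p = 0.00102). The most abundant, angptl4, an inhibitor of lipoprotein lipase, had means of 338.5 ± 31.15 CPM in DMSO and 225 ± 17.95 CPM in TCDD (-0.59 ± 0.12, adjusted p = 0.0147). It was not called with library size alone (adjusted p = 0.0761) and without DMSO 3 (0.0592), TCDD 1 (0.0537) or TCDD 2 (0.0587).

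**Figure D4:**
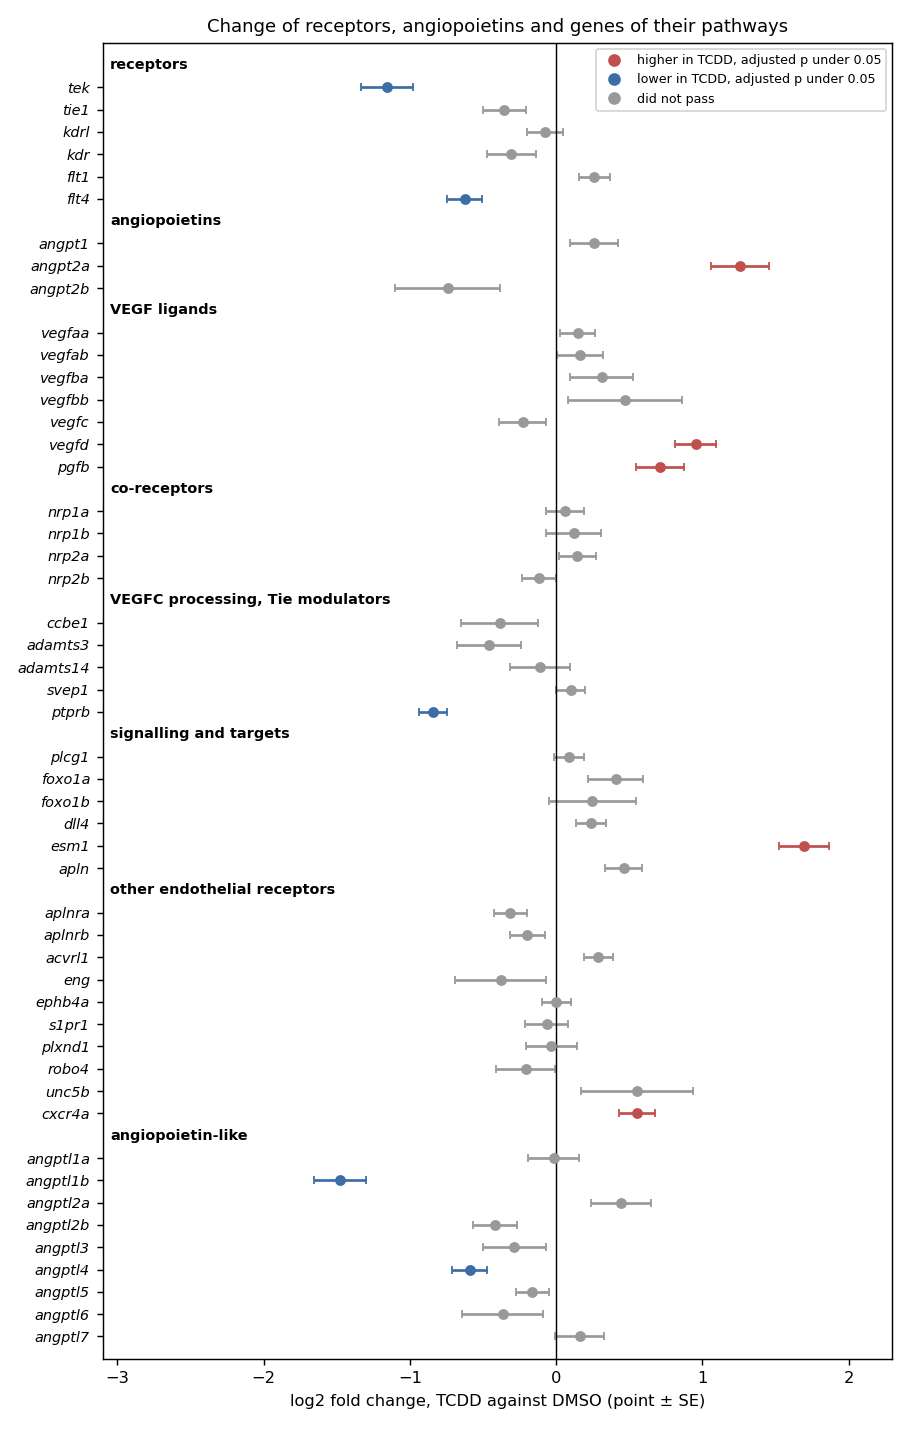
Log2 fold change of the 9 members and the 41 tested pathway genes (horizontal axis; points ± SE from edgeR), grouped by role; red higher and blue lower in TCDD at an adjusted p under 0.05, grey not passing. The calls are tek, flt4, ptprb, angptl1b and angptl4 on the left and angpt2a, vegfd, pgfb, esm1 and cxcr4a on the right.

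The change of a gene varied with the transcript length implied by its count and FPKM, and the receptors are long. The implied lengths were 3346 bases for tek and 4295 bases for flt4, and the genes of their 2 length classes (of 10 classes of equal size) had median log2 fold changes of 0.078 and 0.093. The angiopoietins, at 1259 to 1378 bases, were in a class with a median of -0.074. All 3 calls thus went against the median of genes of like length, and with offsets for length they were -1.24 for tek, -0.72 for flt4 and 1.31 for angpt2a (adjusted p = 0.00306, 0.00842 and 0.00342).

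The genes whose pattern over the 8 samples was most like that of a receptor were found among the 12364 named genes whose mean level reached 5 CPM. Likeness was the root mean square difference between centred log2(CPM + 0.5) profiles, where a smaller value is closer. The closest to tek were f13a1b (0.127), osr1 (0.131) and cxcl12a (0.137), each of which was called lower (log2 fold changes -1.28, -1.115 and -1.03). Profiles were centred over all 8 samples and hold the difference between the groups, so falls like that of tek follow from the choice. The closest to flt4 were gpib (0.0611), acsl5 (0.0759) and myhb (0.0778). For flt1 they were wsb1 (0.0330), dll4 (0.0372) and tpd52l2a (0.0381), and for kdrl tent4b (0.0465), tspan9b (0.0506) and pfas (0.0524). For tie1 they were guf1 (0.0704), krt18b (0.0737) and hibch (0.0775), and for kdr them4 (0.0863), snrnp48 (0.0891) and cdc6 (0.0960). The 5 closest to the mean profile of the 6 receptors were tmem30c, vil1, col6a1, smpd2a and pecam1 (0.0522 to 0.0585), of which pecam1 is in the endothelial list. Many of these genes are not known as endothelial, so a close profile does not mark a cell type.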

How the data were processed

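For every gene, under its NCBI identifier, the authors deposited the expected count, the TPM and the FPKM of each library. The submitters' processing notes name Bowtie2 and GRCz11. For the quantifier, the annotation and strandedness: not given in the sources used here. Reads of paralogs or overlapping genes may be misplaced. The deposited expected counts were rounded and fitted with edgeR 4.0.16 in R 4.3.3 (filterByExpr, TMM, robust quasi-likelihood test, two-sided, adjusted p under 0.05). SE is the log2 fold change over the square root of F. The deposited TPM served for levels and ratios, the deposited FPKM for implied length. Alternatives used DESeq2 1.42.0, limma 3.58.1 (voom), other scaling, filters and thresholds, length offsets (loess span 0.3), a replicate block and left-out samples. Summed marker levels on library size alone, and counts of called markers in each fit, were added after the data were seen. Of the 42 pathway genes adamts14 was matched through a gene table of another assembly. Among the markers etv2 was matched as etsrp, vmhc is the same gene as myh7, and acan was not matched.

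The members, lists and ratios were chosen with earlier results of these data known. Named are all members, every pathway gene or endothelial marker called, the most abundant gene of each pathway list, the 3 most abundant endothelial markers and the genes closest in profile. Other genes are named as examples of their list, chosen after their values were seen. Summaries used Python 3.11.15, pandas 2.3.3 and SciPy 1.17.1. The floor of 3 counts covers counting error only, whereas the 95% intervals of fold changes also hold the spread between samples. Tests were checked on simulated data.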

Additional observations from a re-analysis of the deposited data

Results flagged for a closer look

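The endothelial marker sox18 in DMSO 4 was far from the other samples of its group: it stood at 23.5 CPM against 20.7 to 21.0 CPM in the other 3, a gap of 0.886 of the group's range. Examined were 98 groups of 4 samples, those of the members, the ratios, the other pathway and endothelial genes named by rule and the 9 summed marker lists, and this 1 stood apart. Chance flags about 1 in 20. Other genes of the lists were not examined.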

How the results depend on the processing

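The calls of tek, flt4 and angpt2a were kept in all 19 alternative fits, with adjusted p up to 0.015, 0.0496 and 0.0241. At an adjusted p under 0.01 only 2 members were called and 4 pathway genes. Of all genes, 1174 were called. DESeq2 called 2014, thresholds of 0.01 and 0.1 gave 327 and 2070, and the fit that left out DMSO 1 together with TCDD 2 gave 616. Leaving out 1 sample gave 523 (without DMSO 3) to 1854 (without DMSO 2) for all genes and 4 to 8 for the pathway genes, with 4 in the fits that left out DMSO 3, TCDD 1 or TCDD 2. Scaling by library size alone moved the median over all genes to 0.13, and 937 genes were higher and 372 lower, against 614 and 560.

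The replicate numbers were not taken to pair samples (correlations of deviations -0.293, -0.217, 0.0942 and 0.277 for numbers 1 to 4). With the replicate block 3 members, 7 pathway genes and 1347 genes in all were called. For the ratios the block gave 0 calls, since 4 pairs cannot go below exact p = 0.125. No fit without 1 sample called a ratio (0 in each), nor did the one without both DMSO 1 and TCDD 2 (0), where the smallest possible exact p values are 0.0571 and 0.10. Estimated counts also gave 0.

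Signs turned for kdrl (0.055) and s1pr1 (0.048) with library size alone, for s1pr1 without DMSO 2 (0.087), and for tie1 against the endothelial list without DMSO 4 (-0.007). For nrp1a they turned with length offsets (-0.032), without DMSO 1 (-0.002), DMSO 4 (-0.019) or both DMSO 1 and TCDD 2 (-0.016). Without 1 sample nrp1a ranged from -0.019 to 0.154, s1pr1 from -0.144 to 0.087 and the tie1 ratio from -0.007 to 0.13. The cause was not tested. Depth limits angpt2b, at 7 to 26 counts per library.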

Other observations

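A further angiopoietin gene, angpt4, chosen after the files were seen, had 18 to 41 counts per library. It was at 2.43 ± 0.761 CPM in DMSO and 1.71 ± 0.343 CPM in TCDD (log2 fold change -0.50 ± 0.27, edgeR adjusted p = 0.304). Of the mural markers tagln was at 57.2 ± 18.8 and 27.2 ± 4.23 CPM (edgeR adjusted p = 0.0157) and myh11a at 83.35 ± 17.3 and 52.95 ± 9.34 CPM (edgeR adjusted p = 0.0454), while the other 7 did not pass, with fitted log2 fold changes from -0.53 (acta2) to 0.115 (pdgfrb). Of those, kcne4 was at -0.35, notch3 at -0.082 and ndufa4l2a at -0.057, and abcc9 and cspg4 were within 0.001 of 0.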
